A study of Mus musculus with 48 samples.

Results

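The chemokine ligand genes of the mouse were followed through 48 RNA-seq libraries of cardiac and diaphragm cells. The family was taken as the protein-coding genes whose symbol is Ccl or Cxcl with a number, Cx3cl1 or Xcl1, which gave 37 of the 54752 genes in the expression matrix, 23 of them CC ligands and 12 CXC ligands. Cxcl11 carries such a symbol but is annotated as a polymorphic pseudogene and was not a member. Of these ligands, 32 reached 1 TPM (an abundance scaled by transcript length and library total) in at least 3 libraries. Ccl1 did not exceed 0.379 TPM, Ccl21b, Ccl26 and Ccl27b were listed at 0 in all 48 libraries, and Xcl1 reached 1 TPM in 2 libraries.

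All mice were males labelled C57BL/6, of a line the study founded and bred on C57BL/6J, with an eGFP reporter placed behind an internal ribosome entry site in their own Prox1 gene, so that lymphatic endothelium fluoresces, and all carried an osmotic minipump. The ctrl group was infused with BSA, the angII group with angiotensin II in BSA, a pressor peptide that loads the heart, and the angII+VEGFC group with angiotensin II and VEGFCc156s, a VEGF-C variant that activates the lymphatic receptor VEGFR3 but not VEGFR2. After 5 to 6 weeks, lymphatic endothelial cells (LECs) were sorted from heart and diaphragm as CD31-positive, CD45.2-negative, eGFP-positive cells and blood endothelial cells (BECs) of the heart as their eGFP-negative counterparts, while cardiomyocytes were pelleted from the digest at low speed and were not sorted. Each of the 4 populations had 4 ctrl, 5 angII and 3 angII+VEGFC libraries, and the labelled ages ran from 8 to 16 months, whereas the study's text gives the age of such mice in weeks, so that the unit of the age covariate is uncertain. Sequencing ran in 2 sets for endothelium and in a separate set for cardiomyocytes, so that for cardiomyocytes cell population and sequencing set cannot be told apart. Heart populations came from the same 12 mice, and 11 of these also gave the diaphragm LECs.

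Chemokines are small secreted proteins that guide leukocytes along gradients through G protein-coupled receptors. The homeostatic ligands position cells in resting tissue and lymphoid organs. CCL21, the ligand of CCR7, is displayed by lymphatic vessels and draws dendritic cells and T cells into them, whereas CXCL12 is a retention and homing signal read by CXCR4. Inflammatory ligands are induced on demand: CXCL1 and CXCL2 call neutrophils, CXCL9 and CXCL10 are interferon-induced and attract CXCR3-bearing T cells, CCL2, CCL7, CCL8 and CCL12 attract monocytes and CCL11 and CCL24 eosinophils, and CCL3 and CCL4 are made largely by macrophages. CX3CL1 and CXCL16 are held at the endothelial surface by a transmembrane stalk.

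Promoter sequence is shown for 4 ligands on which the comparison between blood and lymphatic endothelium turned, Cxcl10, Cxcl9, Cxcl1 and Cxcl12. Sequences are those of RefSeq on GRCm38.p6, the 250 bases before the annotated start read 5′ to 3′ on the gene's strand, and 27 of the 37 ligands had a promoter entry. Capitals mark an interferon response core (GAAANNGAA) or an NF-kappaB-like sequence (GGANNTTCC), both searched on both strands. Only these letters were searched, so NF-kappaB sites of other letters are neither marked nor counted. The windows lie at chr5:92348890-92349139 (minus strand) for Cxcl10, chr5:92328080-92328329 (minus) for Cxcl9, chr5:90890995-90891244 (plus) for Cxcl1 and chr6:117168285-117168534 (plus) for Cxcl12.
Cxcl10: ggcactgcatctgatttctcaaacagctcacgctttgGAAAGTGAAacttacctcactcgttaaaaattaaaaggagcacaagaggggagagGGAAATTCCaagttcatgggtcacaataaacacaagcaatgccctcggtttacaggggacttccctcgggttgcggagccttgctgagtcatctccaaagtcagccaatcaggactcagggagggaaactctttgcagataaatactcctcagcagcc
Cxcl9: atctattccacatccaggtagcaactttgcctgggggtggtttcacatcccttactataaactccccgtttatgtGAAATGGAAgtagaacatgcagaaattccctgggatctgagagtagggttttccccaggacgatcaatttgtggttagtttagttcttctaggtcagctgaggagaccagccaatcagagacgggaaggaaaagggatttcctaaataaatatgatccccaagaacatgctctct
Cxcl1: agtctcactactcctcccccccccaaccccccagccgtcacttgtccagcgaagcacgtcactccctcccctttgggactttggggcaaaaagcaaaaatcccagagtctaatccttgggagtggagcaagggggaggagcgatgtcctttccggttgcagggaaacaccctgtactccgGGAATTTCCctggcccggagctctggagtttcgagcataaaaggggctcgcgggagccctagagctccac
Cxcl12: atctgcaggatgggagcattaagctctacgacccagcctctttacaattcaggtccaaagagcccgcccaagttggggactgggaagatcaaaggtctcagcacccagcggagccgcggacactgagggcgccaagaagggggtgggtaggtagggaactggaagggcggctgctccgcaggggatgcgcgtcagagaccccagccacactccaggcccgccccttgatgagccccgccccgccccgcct
The Cxcl10 window held both motifs, the interferon core 213 bases and the NF-kappaB-like sequence 158 bases before the start. In Cxcl9 the interferon core stood 175 bases, and in Cxcl1 the NF-kappaB-like sequence 70 bases, before the start. The Cxcl12 window held neither. Of the 27 ligand genes, 6 had the NF-kappaB-like sequence (Ccl1, Ccl12, Cxcl1, Cxcl2, Cxcl3 and Cxcl10) and 6 the interferon core (Ccl1, Ccl3, Ccl19, Cxcl9, Cxcl10 and Cxcl14), against 3.59% and 7.13% of 32851 RefSeq promoter windows of the same length. These matches describe letters in the window and no binding was measured.

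Lymphatic markers separated the sorted populations. The summed level of Prox1, Lyve1, Flt4 and Pdpn was 1580 to 2540 TPM in heart LECs and 4090 to 6600 TPM in diaphragm LECs, against 76 to 129 TPM in heart BECs and 25.7 to 47.2 TPM in cardiomyocytes. Each library summed to 997657 to 999929 TPM, and no 2 libraries held identical values. TPM values keep no record of read depth. More genes reached 1 TPM in angII LEC libraries (19957 to 25896 in heart, 20062 to 23691 in diaphragm) than in most ctrl ones (16131 to 24086 and 12924 to 18116). Of the heart BEC libraries, 1 of each treatment (ctrl mouse 1, angII mouse 3 and angII+VEGFC mouse 2) held 3610, 2210 and 2390 TPM of summed fibroblast markers where the other 9 held 416 to 886. The cardiomyocyte libraries held 808 to 2806 TPM of 12 summed macrophage and monocyte markers, and the sorted libraries 32.9 to 413 TPM. A gene listed at 0 may be a failed estimate rather than an absent transcript. In bulk libraries of this kind, fewer cells of a type and less RNA per cell cannot be told apart.

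Ccl21a dominated the ligand pool of lymphatic endothelium and was a minor part of it elsewhere. In heart LECs 10 ligands were at 1 TPM or more in every library, in diaphragm LECs 10, in BECs 15 and in cardiomyocytes 23. Ccl21a alone made up 96 to 98.8% of all ligand TPM in heart LECs and 96.8 to 99.2% in diaphragm LECs, but 7.91 to 27.6% in BECs and 3.48 to 18.8% in cardiomyocytes. Without Ccl21a, the remaining ligands summed to a median of 446 TPM in heart LECs, 467 TPM in diaphragm LECs, 1470 TPM in BECs and 999 TPM in cardiomyocytes. The leading ligands after Ccl21a were Cxcl1, Ccl2 and Ccl7 in both LEC populations, whereas in BECs Cxcl12 and Cxcl1 led, ahead of Ccl21a and Cxcl10, and in cardiomyocytes Cxcl1 led, ahead of Ccl21a and Cxcl12.

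**Figure D1:**
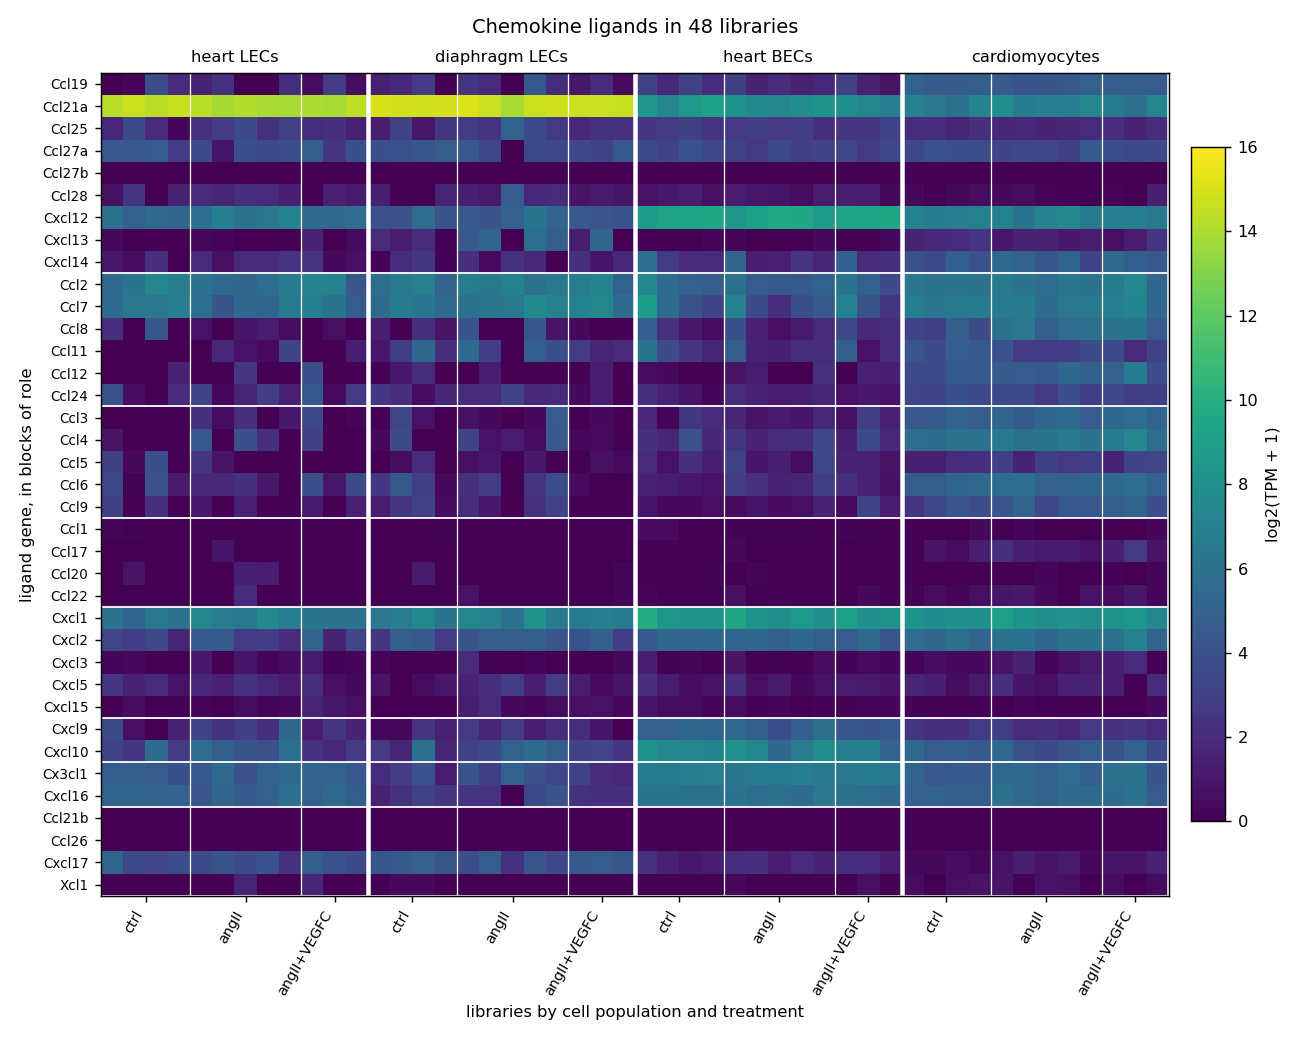
Level of the chemokine ligands, as log2(TPM + 1) in colour, in each of the 48 libraries (columns, by population and treatment), with ligands as lines of the map grouped by role. Ccl21a stands apart in both LEC populations, where it made up at least 96% of ligand TPM, and the cardiomyocyte libraries show the broadest set of ligands, 23 at 1 TPM or more in every library.

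Ccl21a lies at 42772860 to 42773993 on the minus strand of chromosome 4 (GRCm38). In heart LECs its level was lowest at 14473, median 19115 and highest 27226 TPM over 12 libraries, and in diaphragm LECs 15675, 28382 and 35804 TPM. It was the first or second most abundant of all genes in every LEC library. BEC libraries ran from 108 through a median of 246 to 563 TPM and cardiomyocyte libraries from 58.8 through 115 to 224 TPM, so that neither overlapped the LEC libraries. Heart LECs exceeded BECs by 6.38 on the log2(TPM + 1) scale (SE 0.15, limma, Benjamini-Hochberg adjusted p = 4.04e-26) and diaphragm LECs exceeded BECs by 6.93, higher in 12 of 12 and 11 of 11 mice. Diaphragm LECs held more Ccl21a than heart LECs in 11 of 11 mice (heart minus diaphragm -0.55, SE 0.15, limma adjusted p = 0.0274), although the ranges of the populations overlapped. That difference was -0.25 with adjusted p = 0.412 after quantile normalization. The call was also lost without the filter on low values (limma adjusted p = 0.0563) and with the number of genes at 1 TPM as a covariate (adjusted p = 0.104). When single libraries were left out it was lost in 5 of 24 fits.

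The gene has near-identical relatives on the same chromosome, among which reads could have been divided. Gm21541 (41903610 to 41904743, plus strand) differed from Ccl21a at 6 positions over 870 aligned transcript bases and reached 11200 TPM, and Gm13304 (42114817 to 42115917, plus strand) differed at 5 positions over 837 bases, reached 2560 TPM and was listed at 0 in 16 libraries. Gm10591 and Ccl21b were listed at 0 throughout. Ccl21a took a median of 71.3% of the summed level of itself and these copies in heart LECs, 73% in diaphragm LECs, 70.8% in BECs and 68.8% in cardiomyocytes. Summed with its copies, the difference between heart LECs and BECs was 6.36 and that between heart and diaphragm LECs was -0.54 (limma adjusted p = 0.0234), so the division among copies changed neither call.

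**Figure D2:**
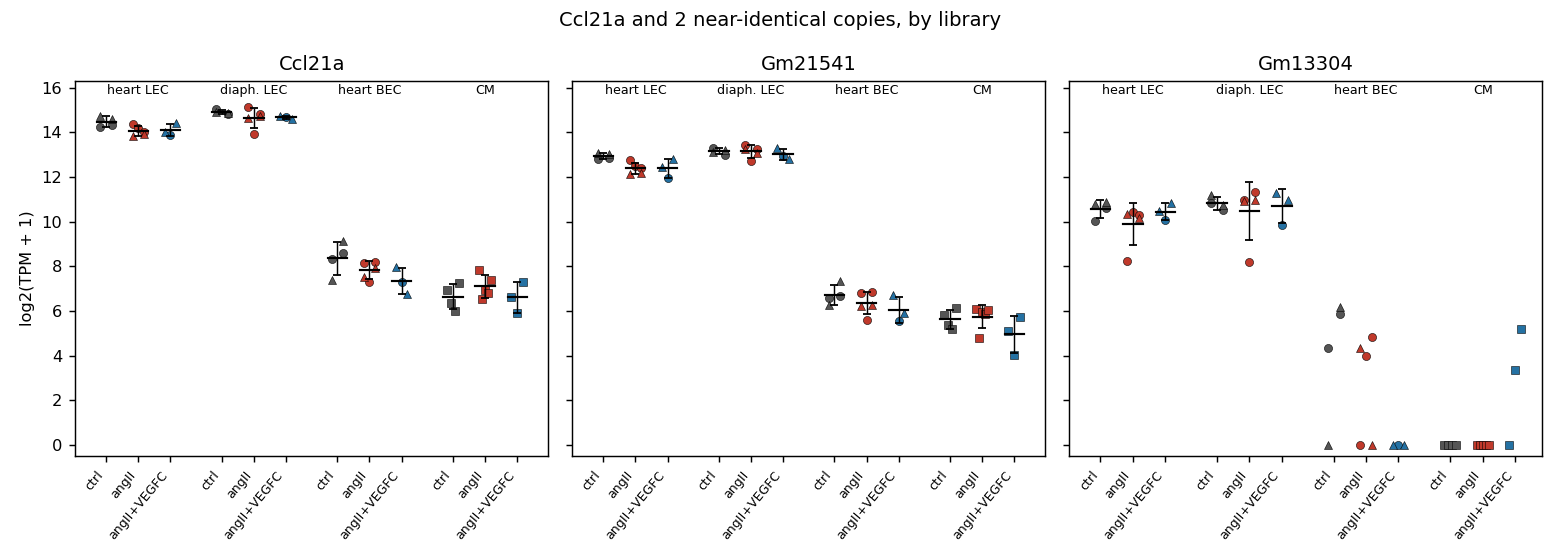
Level of Ccl21a and of its copies Gm21541 and Gm13304 by library, population and treatment (log2(TPM + 1)), with ctrl in grey, angII in red and angII+VEGFC in blue, circles and triangles for the endothelial sequencing sets and squares for cardiomyocytes. Horizontal bars are group means with SD, left out for groups with a library listed at 0, and Ccl21a was at 14473 TPM or more in every LEC library and at 563 TPM or less in BECs and cardiomyocytes (CM).

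Lymphatic and blood endothelium of the heart differed in 12 of 30 ligands tested (limma, Benjamini-Hochberg adjusted over all genes), 3 higher in LECs and 9 higher in BECs, against 17.6% of all 32754 genes tested. The median difference of the 30 ligands was -0.28 and that of all genes 0.15 on the log2 scale. Diaphragm LECs against heart BECs gave 14 of 30 ligands, 5 higher and 9 lower, against 16.6% of all genes, with a median of -0.16 for the ligands and 0.03 for all genes. By role, 2 of 8 homeostatic ligands tested, both interferon-induced ligands, both membrane-bound ligands, 2 of 5 neutrophil-recruiting ligands and 1 of 6 monocyte- and eosinophil-recruiting ligands were lower in heart LECs than in BECs.

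The homeostatic ligand Cxcl12 was the most abundant ligand of BECs. Over 12 libraries it ran from 352 through a median of 611 to 808 TPM in BECs, from 30.3 through 55 to 135 TPM in heart LECs and from 14.4 through 19.4 to 70.2 TPM in diaphragm LECs, with no overlap between BECs and either LEC population. Heart LECs differed from BECs by -3.41 (SE 0.19, limma adjusted p = 1.18e-15) and diaphragm LECs by -4.63, with BECs higher in each of the 12 and 11 mice. The difference between heart LECs and BECs was -3.07 in the first sequencing set and -3.57 in the second. Cxcl14, a second homeostatic ligand that attracts myeloid cells, was chosen after its values were seen: it ran from 1.28 to 54.8 TPM in BECs and was lower in heart LECs (-1.51, limma adjusted p = 0.0278). Its highest BEC value lay in a library rich in fibroblast markers, and without the 3 such libraries the difference was -0.69 with adjusted p = 0.285.

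The interferon-induced pair was higher in blood endothelium throughout. Cxcl10 ran from 32.5 through a median of 148 to 301 TPM in BECs, against 2.45, 11.7 and 56.5 TPM in heart LECs and 2.11, 8.53 and 57.8 TPM in diaphragm LECs. The single BEC libraries of 32.5 and 40.1 TPM reached into the LEC range, yet within a mouse the BEC library was the higher in 12 of 12 (heart LEC minus BEC -3.42, SE 0.4, limma adjusted p = 3.02e-08). Cxcl9 ran from 13.4 through 28.5 to 58.2 TPM in BECs, from 0 through 3.91 to 38 TPM in heart LECs and from 0.0382 through 2 to 6.18 TPM in diaphragm LECs. Its difference was -2.63 (SE 0.35, limma adjusted p = 4.99e-07) in heart and -3.34 in diaphragm LECs, again with BECs higher in every mouse. Cxcl10 overlaps Art3 on the opposite strand, and libraries without strand information cannot tell their reads apart. The promoter windows of Cxcl9 and Cxcl10 held the interferon core shown above, as did those of Ccl1, Ccl3, Ccl19 and Cxcl14. A link between the core and these levels was not tested.

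Among the neutrophil-recruiting ligands, Cxcl1 was abundant in all 4 populations. BECs ran from 254 through a median of 296 to 972 TPM, heart LECs from 36.6 through 78.9 to 181 TPM, diaphragm LECs from 58.3 through 103 to 289 TPM and cardiomyocytes from 160 through 267 to 557 TPM. The heart LEC and BEC libraries did not overlap (-2.17, SE 0.24, limma adjusted p = 6.98e-09), and the diaphragm LECs were also lower than BECs (-1.72). The 3 highest BEC values, 972, 712 and 526 TPM, belonged to the 3 libraries with high fibroblast markers, whose part in the level was not tested, and the call held without those libraries. Cxcl2, named after its values were seen, differed between heart LECs and BECs by -1.85 (SE 0.35, adjusted p = 0.000115) and was higher in BECs in 11 of 12 mice. Its difference for diaphragm LECs (-0.99, adjusted p = 0.0464) and that of Ccl5 (-1.05, adjusted p = 0.0478) lost their calls when any of 18 and 16 of 24 single libraries was left out. The low neutrophil ligands Cxcl3 and Cxcl15 did not exceed 2.96 and 3.01 TPM in any library.

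Both membrane-bound ligands were highest in BECs, intermediate in heart LECs and lowest in diaphragm LECs. Cx3cl1, the ligand of the patrolling-monocyte receptor CX3CR1, ran from 76.9 through 98.5 to 123 TPM in BECs, from 14.2 through 25.2 to 43.5 TPM in heart LECs and from 1.42 through 7.5 to 28.8 TPM in diaphragm LECs. BECs did not overlap either LEC population (heart LEC minus BEC -1.9, SE 0.24, adjusted p = 1.98e-07, and diaphragm LEC minus BEC -3.7), and heart LECs exceeded diaphragm LECs in 11 of 11 mice (1.8, SE 0.24, adjusted p = 3.77e-06). Cxcl16, which binds CXCR6 and was named after its values were seen, ran from 44.7 through 61.9 to 79.2 TPM in BECs, from 17.8 through 32.1 to 54.8 TPM in heart LECs and from 0 through 4.27 to 16 TPM in diaphragm LECs. All 12 heart LEC libraries lay above all 12 diaphragm LEC libraries for Cxcl16 (2.62, SE 0.27, limma adjusted p = 1.38e-08). The smaller difference between heart LECs and BECs (-0.9, adjusted p = 0.0153) lost its call with a pseudocount of 0.1 (adjusted p = 0.184). Cxcl16 overlaps Zmynd15 on the opposite strand.

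Besides Ccl21a, the ligands higher than in BECs in both LEC populations were Cxcl17, a mucosal ligand of myeloid cells, and Ccl2, the main monocyte attractant. Cxcl17 ran from 4.02 through 12.5 to 34.5 TPM in heart LECs, from 4.07 through 18.7 to 29.5 TPM in diaphragm LECs and from 1.01 through 2.26 to 3.77 TPM in BECs. The LEC and BEC libraries did not overlap, at 2.23 (SE 0.25, limma adjusted p = 1.55e-08) for heart and 2.56 for diaphragm LECs. Ccl2 ran from 17.4 through 67.4 to 154 TPM in heart LECs and from 11.6 through 29.4 to 173 TPM in BECs, ranges that overlapped. The heart LEC library was the higher of the mouse's pair in 10 of 12 cases (0.95, SE 0.33, adjusted p = 0.0463), as was the diaphragm LEC library in 10 of 11 (1.12, SE 0.34, adjusted p = 0.0154), but the heart call was lost when any of 17 single libraries of 24 was left out. Ccl7, a second monocyte attractant, ran from 3.59 to 464 TPM in BECs with its highest value in the library richest in fibroblast markers. Its difference between diaphragm LECs and BECs was 1.66 (SE 0.53, adjusted p = 0.0242). Cxcl13, whose values follow with the comparison of the organs, was also higher in diaphragm LECs than in BECs (2.44, SE 0.48, adjusted p = 0.000188, higher in 9 of 11 mice). Without the 3 fibroblast-rich BEC libraries, Ccl7 was also higher in heart LECs (2.13, limma adjusted p = 4e-05). In the fit of all libraries Ccl11 was lower in heart LECs than in BECs (-2.24, adjusted p = 0.00735), and it was lower in 10 of 12 mice. Without those 3 libraries Ccl11 lost its call (-1.36, adjusted p = 0.106). Ccl11 was named after its values were seen.

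**Figure D3:**
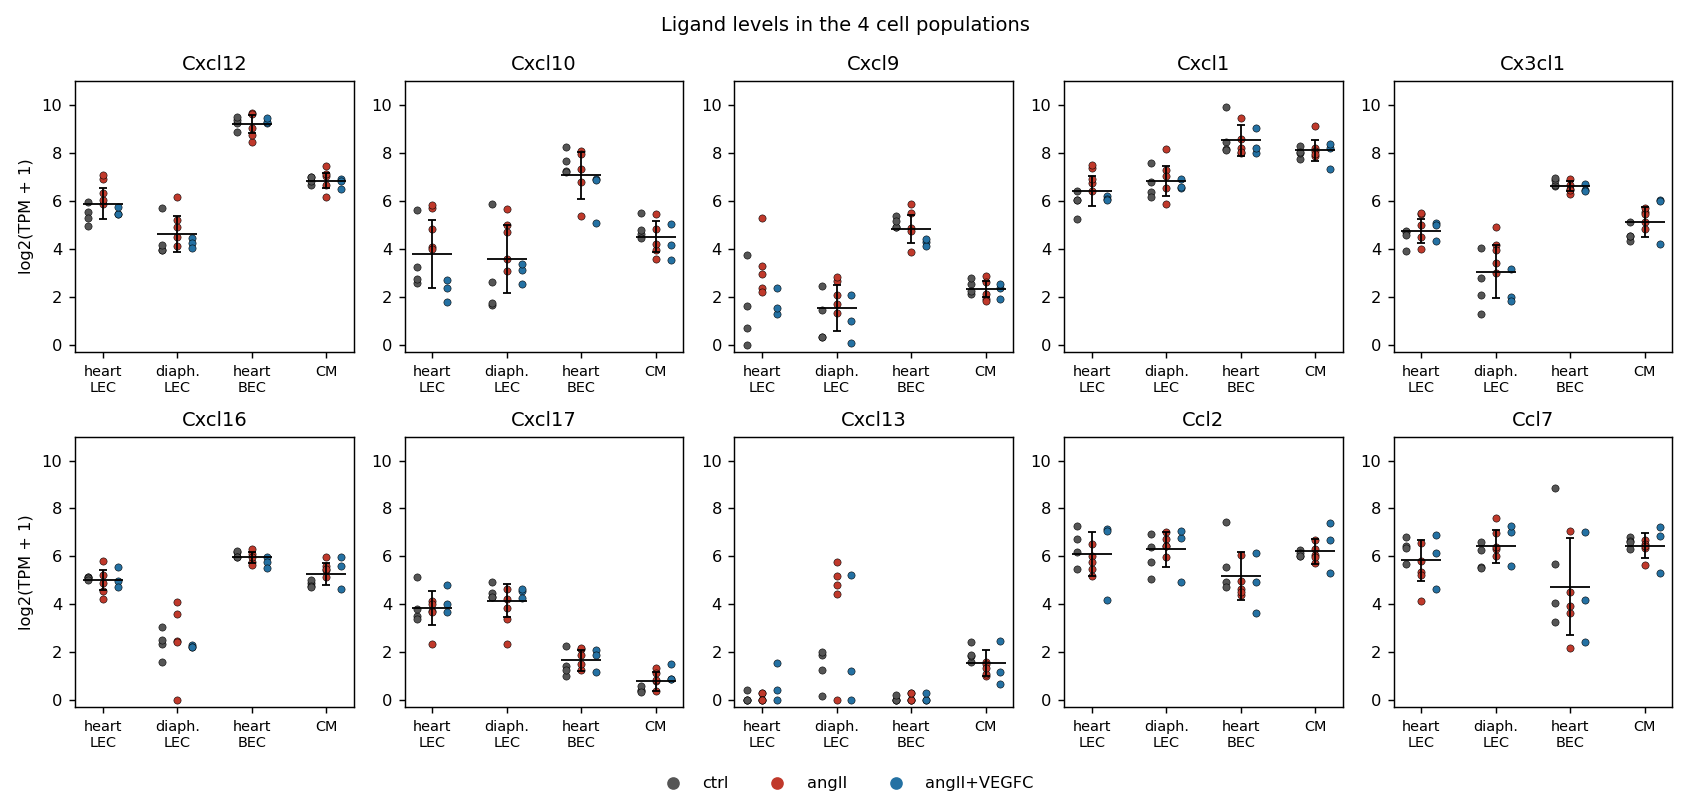
Level of 10 ligands as log2(TPM + 1) in heart LECs, diaphragm LECs, heart BECs and cardiomyocytes (CM), 12 libraries each, coloured by treatment. Black lines are population means with SD, left out where a library was listed at 0. Cxcl12, Cx3cl1 and Cxcl17 separate BECs from both LEC populations with no overlap.

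LECs of the 2 organs differed in 6 of 30 ligands, against 4.56% of all genes tested, with a median difference of -0.01 for the ligands and 0.1 for all genes. Heart LECs were higher in Cxcl16 and Cx3cl1, as given above, and in Cxcl12 (1.22, SE 0.19, limma adjusted p = 5.3e-05, higher in 10 of 11 mice). Diaphragm LECs were higher in Ccl21a, Ccl11 and Cxcl13, the B-cell attractant that organizes lymphoid follicles. Cxcl13 ran from 0 through 2.85 to 54.1 TPM in diaphragm LECs and from 0 through 0 to 1.94 TPM in heart LECs. The high values came from 5 diaphragm libraries of 20.3 TPM or more, 4 of them angII, while the others lay at 3.03 TPM or less (heart minus diaphragm -2.24, SE 0.48, adjusted p = 0.00281). Ccl11 ran from 0 through 6.4 to 49.9 TPM in diaphragm and from 0 through 0 to 8.82 TPM in heart LECs (-2.26, SE 0.61, adjusted p = 0.0226). Its call was lost without ctrl mouse 9, the diaphragm library with 140 TPM of summed neutrophil markers (-1.94, adjusted p = 0.0619).

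The cardiomyocyte libraries carried a set of ligands that the sorted endothelium had at low levels. Against BECs, 17 ligands were higher and 9 lower of 29 tested. Of all 23213 genes tested, 74.8% passed, and 14870 of these 17374 were lower, so that most genes of either kind differed. The ligand median was 0.8 and the all-gene median -0.61. All 5 macrophage inflammatory ligands (Ccl3, Ccl4, Ccl5, Ccl6 and Ccl9) and 5 of 6 monocyte- and eosinophil-recruiting ligands were higher. Of these, Ccl5 (0.8, adjusted p = 0.0279) lost its call without the filter on low values (adjusted p = 0.0552), with the number of genes at 1 TPM as a covariate (adjusted p = 0.129) and when any of 5 single libraries of 24 was left out. Ccl4 ran from 50.4 through 65.7 to 171 TPM in cardiomyocyte libraries against a mean of 5 ± 4.16 TPM in BECs (SD, n = 12, difference 3.91, SE 0.28, limma adjusted p = 8.91e-12). Ccl3 ran from 19.3 through 32.8 to 52 TPM (3.47, SE 0.25, adjusted p = 1.14e-11) and Ccl6 from 25.4 through 35 to 56.8 TPM (3.61, SE 0.2, adjusted p = 1.04e-13), with every cardiomyocyte library above the BEC library of its mouse. Ccl9 (3.11), Ccl12 (3.98), Ccl19 (2.48) and Ccl24 (2.08) had the same order in 12 of 12 mice, Ccl12 and Ccl19 being named after their values were seen. Ccl17, a T helper cell attractant also named after its values were seen, was at most 0.883 TPM in endothelium and 5.44 TPM in cardiomyocyte libraries (1.19). Cxcl12 (-2.39), Cxcl9 (-2.45), Cxcl10 (-2.5), Cx3cl1 (-1.49) and Ccl21a (-1.06) were lower in cardiomyocyte libraries, the first 4 in all 12 mice. The Ccl21a call was lost after quantile normalization (-0.36, adjusted p = 0.194).

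These unsorted pellets also carried macrophage markers, and that level moved with the same contrast. All 12 markers were above 0 in every cardiomyocyte library, with medians of 567 TPM for Lyz2, 270 TPM for C1qb, 41.4 TPM for Csf1r and 14.9 TPM for Adgre1, while the cardiomyocyte markers Myh6, Tnnt2, Actc1 and Myl2 summed to 5656 to 16148 TPM. In heart LECs, by comparison, Adgre1 was under 1 TPM in 10 of 12 libraries and C1qb was listed at 0 in 6. With the mean log2(TPM + 1) of the macrophage markers as a covariate, 4 of the 29 ligands passed the test in place of 26, and Ccl4 (-0.74), Ccl12 (-0.76), Ccl9 (-0.47) and Ccl8 (-2.35) changed direction. Population, sequencing set and macrophage marker level cannot be told apart in this contrast.

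No ligand passed the test in any of the 9 treatment comparisons within endothelial populations or the 3 within cardiomyocytes. In RNA-seq of LECs from both organs, the study reported inflammation and chemotaxis genes raised by angII and lowered by added VEGFCc156s. Its test was of counts with surrogate variables (DESeq2) and not the limma fit on TPM used here, so the calls cannot be compared directly. In heart LECs, angII against ctrl called 0 of 26 ligands and 0.0261% of 26803 genes, with 6 ligands and 10.9% of all genes at an unadjusted p under 0.05 (limma), 4 of the 6 higher. The ligand median was 0.14 and the all-gene median 0.23. The comparison of angII+VEGFC with angII called 0 of 26 and 0% of genes (5 ligands and 10.8% of genes unadjusted), and that of angII+VEGFC with ctrl 0 of 26 and 0% (2 ligands and 4.94% of genes unadjusted).

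Cxcl1 and Cxcl12 had the smallest unadjusted p-values for angII against ctrl in heart LECs. Cxcl1 was 36.6, 64.1, 64.1 and 84.7 TPM in ctrl, 85, 107, 119, 164 and 181 TPM in angII and 65.5, 67.4 and 73.2 TPM in angII+VEGFC. All 5 angII libraries lay above all ctrl and angII+VEGFC libraries, though the highest ctrl and lowest angII values nearly met. The fitted difference was 1.01 for angII against ctrl (SE 0.27, unadjusted p = 0.00154, limma adjusted p = 0.22), -0.74 for angII+VEGFC against angII (adjusted p = 0.442) and 0.27 for angII+VEGFC against ctrl (adjusted p = 0.919). The first 2 comparisons share the angII libraries, so that their opposite signs are not independent. Cxcl12 was 30.3, 38.2, 44.9 and 61.5 TPM in ctrl, 57.4, 64.1, 79.4, 121 and 135 TPM in angII and 42.5, 42.9 and 52.6 TPM in angII+VEGFC. Here the highest ctrl library overlapped the lowest angII library, and the differences were 0.98 (SE 0.29, limma adjusted p = 0.264), -0.83 (adjusted p = 0.438) and 0.16 (adjusted p = 0.962). Within the sequencing sets the angII difference was 0.67 and 1.51 for Cxcl1 and 0.58 and 1.5 for Cxcl12. The BEC markers Nos3, Aqp1, Cd36 and Flt1, which summed to 3758 to 6773 TPM in BECs, were at 1028 to 2107 TPM in the angII heart LEC libraries against 774 to 1026 TPM in ctrl and 858 to 1024 TPM in angII+VEGFC, and their part in the result was not tested.

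The interferon-induced ligands varied widely between mice of a group. Cxcl10 in heart LECs was 5.04, 5.75, 8.57 and 48.3 TPM in ctrl, 14.9, 16.1, 27.2, 50.8 and 56.5 TPM in angII and 2.45, 4.09 and 5.55 TPM in angII+VEGFC. A single ctrl library, from mouse 9, reached the angII range, and all angII+VEGFC libraries lay below all angII libraries. The differences were 1.18 for angII against ctrl (SE 0.55, limma adjusted p = 0.449) and -2.23 for angII+VEGFC against angII (SE 0.65, unadjusted p = 0.00344, adjusted p = 0.413), which share the angII libraries, and -1.05 for angII+VEGFC against ctrl (adjusted p = 0.915). Cxcl9 was 0, 0.599, 2.02 and 12.3 TPM in ctrl, 3.64, 4.18, 6.64, 8.74 and 38 TPM in angII and 1.4, 1.87 and 4.2 TPM in angII+VEGFC. The ctrl and angII libraries overlapped, and the difference was 1.72 (SE 0.7, adjusted p = 0.395).

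Ccl21a in heart LECs was 19594, 20379, 25180 and 27226 TPM in ctrl, 14473, 15833, 16357, 18636 and 21205 TPM in angII and 15082, 16527 and 21666 TPM in angII+VEGFC. Of the treated libraries 6 of 8 lay below the lowest ctrl library, with differences of -0.37 for angII (SE 0.14, limma adjusted p = 0.373) and -0.45 for angII+VEGFC (SE 0.17, adjusted p = 0.915) against ctrl. Summed with its copies these were -0.41 (adjusted p = 0.337) and -0.47 (adjusted p = 0.914). Ccl7 was 50, 80.4, 85.7 and 112 TPM in ctrl, 16.5, 35.9, 40.2, 55.6 and 92.1 TPM in angII and 23.7, 69.1 and 119 TPM in angII+VEGFC, overlapping throughout. Its angII difference was -1.06 (SE 0.44, adjusted p = 0.4), but -0.1 in the first sequencing set and -1.96 in the second. Ccl2 followed no group, at 43.2 to 154 TPM in ctrl, 35.7 to 91.5 TPM in angII and 17.4 to 141 TPM in angII+VEGFC.

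Ligands with low and patchy levels made up the rest of the heart LEC list. Ccl28, a mucosal homing ligand, was at 0.036, 1.27 and 1.75 TPM in angII+VEGFC and at 1.61 to 3.58 TPM in angII (difference -1.47, limma adjusted p = 0.446). Ccl6, a macrophage ligand, was 1.06, 11.5 and 14.2 TPM in angII+VEGFC and 0 to 3.55 TPM in angII (2.08, SE 0.98, adjusted p = 0.461), where the summed macrophage markers were 37.3, 140 and 384 TPM and 33.2 to 266 TPM. With the mean log2 level of those markers as a covariate the Ccl6 difference was 1.39 (adjusted p = 0.511). Ccl5, a T-cell attractant, was listed at 0 in all 3 angII+VEGFC libraries and was 0, 0.349, 7.06 and 14.1 TPM in ctrl.

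In diaphragm LECs, angII against ctrl called 0 of 25 ligands and 0% of 23839 genes, with 6 ligands and 15.3% of genes at an unadjusted p under 0.05 (limma). Of the 6 ligands, 5 were higher and 1, Cxcl17, was lower. The fitted difference was positive for 19 of 25 ligands and for 67.6% of all genes, with medians of 0.62 and 0.28. The comparison of angII+VEGFC with angII called 0 of 25 and 0% (4 ligands and 8.78% of genes unadjusted, all 4 lower), and that with ctrl 0 of 25 and 0% (2 ligands and 1.32% of genes unadjusted). Cxcl13 was 0.134, 1.42, 2.67 and 3.03 TPM in ctrl, 0, 20.3, 27.4, 35.8 and 54.1 TPM in angII and 0, 1.31 and 36.5 TPM in angII+VEGFC. Of the 5 angII libraries 4 exceeded every ctrl library and the fifth, mouse 4, the animal without paired heart libraries, was listed at 0 (2.66, SE 1.1, adjusted p = 0.307). The difference was 1.14 in the first sequencing set and 4.77 in the second. Cxcl17 was 18.6, 18.7, 21.4 and 29.5 TPM in ctrl and 4.07, 9.49, 13.2, 17.7 and 23.9 TPM in angII, ranges that overlapped. Its angII difference ran from -1.01 to -0.5 when single libraries were left out and was not called.

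Cx3cl1 in diaphragm LECs was 1.42, 3.15, 5.86 and 15.2 TPM in ctrl, 6.99, 9.58, 14.6, 16.7 and 28.8 TPM in angII and 2.57, 2.92 and 8.01 TPM in angII+VEGFC. The groups overlapped, with differences of 1.3 for angII against ctrl (SE 0.54, limma adjusted p = 0.307) and -1.35 for angII+VEGFC against angII (SE 0.63, adjusted p = 0.567). Cxcl10 repeated the pattern of a single high ctrl library, at 2.11, 2.34, 5.21 and 57.8 TPM in ctrl, 7.4, 10.8, 24.9, 30.5 and 48.9 TPM in angII and 4.81, 7.71 and 9.35 TPM in angII+VEGFC (angII against ctrl 1.32, SE 0.57, adjusted p = 0.312). The high ctrl library was again mouse 9, whose BEC and cardiomyocyte libraries were not the highest of their groups. Cxcl5, a neutrophil attractant, was 0, 0.44, 0.772 and 1.04 TPM in ctrl and 1.29, 2.08, 3.7, 6.05 and 6.32 TPM in angII. These groups did not overlap (1.53, SE 0.5, adjusted p = 0.297), although all values were low. Ccl25, a thymic and gut homing ligand whose gene overlaps Elavl1, was 1.05 to 7.81 TPM in ctrl and 4.49 to 30.1 TPM in angII (1.31, adjusted p = 0.304).

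Ccl6 in diaphragm LECs was 0.281, 4.73, 6.42 and 20.7 TPM in ctrl, 0, 3.61, 4.42, 6.25 and 13.4 TPM in angII and 0, 0 and 0.359 TPM in angII+VEGFC. The angII+VEGFC libraries were low, with 1 angII library also at 0 (angII+VEGFC against angII -2.18, SE 0.95, limma adjusted p = 0.567, and against ctrl -2.44, SE 0.98, adjusted p = 1). The summed macrophage markers moved alongside, at 43.2 to 74.2 TPM in angII+VEGFC, 135 to 413 TPM in angII and 70.4 to 223 TPM in ctrl, and with the mean log2 level of those markers as a covariate the fitted difference against angII was 0.69. Ccl24, an eosinophil attractant, was 0, 0.353 and 1.29 TPM in angII+VEGFC and 2.39 to 8.44 TPM in angII, without overlap (-1.83, SE 0.58, adjusted p = 0.567).

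In heart BECs, angII against ctrl called 0 of 26 ligands and 0% of 21281 genes (3 ligands and 5.4% of genes at an unadjusted p under 0.05, limma), angII+VEGFC against angII 0 of 26 and 0% (1 ligand and 2.59%) and angII+VEGFC against ctrl 0 of 26 and 0% (3 ligands and 5.51%). The ligand medians were -0.13, -0.14 and -0.23. Cxcl12, the leading BEC ligand, was 465, 602, 658 and 722 TPM in ctrl, 352, 425, 528, 786 and 808 TPM in angII and 600, 620 and 710 TPM in angII+VEGFC. These overlapped fully, with an angII difference of -0.19 whose 95% interval ran from -0.61 to 0.24. Cx3cl1 was 96.4 to 123 TPM in ctrl, 76.9 to 119 TPM in angII and 83.2 to 102 TPM in angII+VEGFC (-0.24, interval -0.52 to 0.03). Cxcl10 was 145, 152, 203 and 301 TPM in ctrl, 40.1, 109, 162, 250 and 268 TPM in angII and 32.5, 115 and 121 TPM in angII+VEGFC. All 3 angII+VEGFC libraries lay below the 4 ctrl libraries (-1.41, SE 0.6, adjusted p = 0.878), and for Cxcl9 likewise (16.4, 18.3 and 20.5 TPM against 29.3, 29.5, 34.5 and 40.4 TPM, difference -0.86, SE 0.38, adjusted p = 0.902). Ccl21a was 164, 324, 384 and 563 TPM in ctrl, 154 to 295 TPM in angII and 108, 156 and 247 TPM in angII+VEGFC, overlapping at the lowest ctrl library (angII+VEGFC against ctrl -0.82, SE 0.34, adjusted p = 0.878), while the summed LEC markers were 76 to 129, 79.9 to 110 and 97.1 to 128 TPM. Ccl6 was 0.754, 1.04, 1.52 and 2.08 TPM in ctrl and 1.94, 2.14, 3.83, 5.98 and 6.84 TPM in angII (overlapping at 1 library of each, 1.06, SE 0.39, adjusted p = 0.848), beside macrophage marker sums of 32.9 to 47 and 34.7 to 113 TPM. Ccl27a, a skin-homing ligand whose gene overlaps Il11ra1, had a difference of -0.53 for angII against ctrl.

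**Figure D4:**
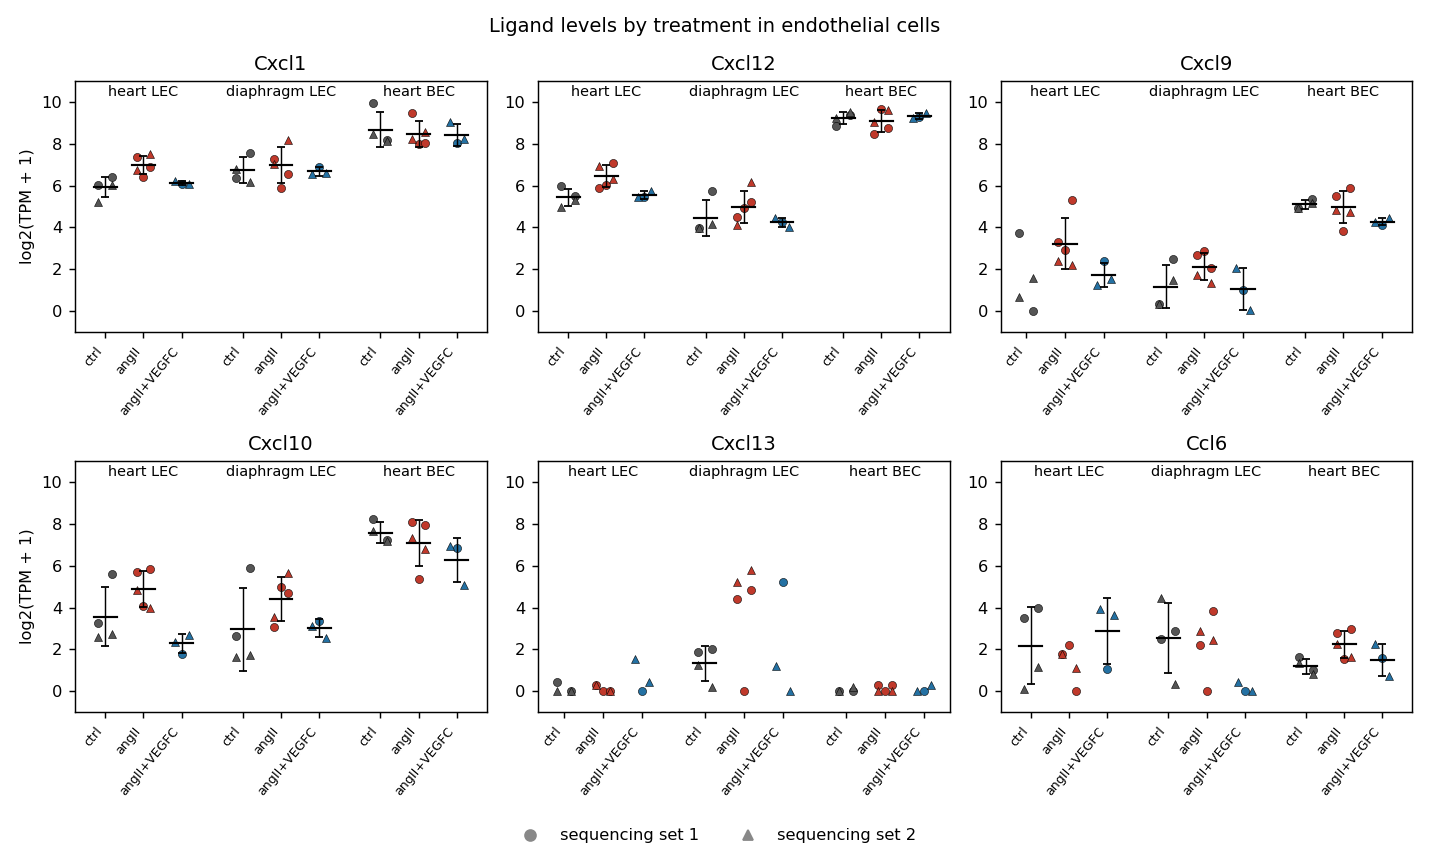
Level by library of Cxcl1, Cxcl12, Cxcl9, Cxcl10, Cxcl13 and Ccl6 in the 3 endothelial populations (log2(TPM + 1), ctrl grey, angII red, angII+VEGFC blue, circles and triangles for the sequencing sets). Horizontal bars are group means with SD, left out for groups with a library listed at 0, and no treatment difference plotted passed limma's test adjusted over all genes.

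Further inflammatory ligands that the study names were low or patchy in heart LECs, and Ccl20 and Ccl22 were low in all populations. Besides its RNA-seq, the study measured Ccl3, Ccl4, Ccl6 and Cxcl10 by RT-PCR in whole hearts at an earlier time. The proteins KC/GRO (CXCL1), IP-10 (CXCL10) and MDC (CCL22) were measured in skin, and KC/GRO also in plasma. Those measurements differ from these libraries in tissue and in time or measure, so the values below do not test them. Ccl3 was listed at 0 in all 4 ctrl heart LEC libraries, was 0, 0.431, 1.09, 3.48 and 3.48 TPM in angII and 0, 0.213 and 10 TPM in angII+VEGFC. Ccl4 was 0, 0, 0 and 0.8 TPM in ctrl, 0, 0, 3.38, 14.1 and 19.9 TPM in angII and 0, 0 and 7.34 TPM in angII+VEGFC (angII against ctrl 1.78, interval -0.2 to 3.76, limma adjusted p = 0.508). Each treated group held libraries listed at 0 beside its highest ones. Ccl9 was 0, 0, 3.68 and 7.32 TPM in ctrl and at most 1.72 TPM in angII (-0.96, interval -2.27 to 0.36, adjusted p = 0.597). Outside heart LECs, Ccl4 ran from 1.69 to 14.4 TPM in heart BECs. In diaphragm LECs, Ccl3 and Ccl4 reached 22.7 and 21.1 TPM, both in angII mouse 14. Ccl20 reached 1.69 TPM in heart LECs, 1.2 TPM in diaphragm LECs, 0.218 TPM in BECs and 0.227 TPM in cardiomyocytes, and Ccl22 2.67, 0.735, 0.609 and 1.04 TPM, with 1 TPM or more in 3 of 48 libraries for each. Ccl20 and Ccl22 reached 1 TPM in too few libraries to be tested for treatment within any endothelial population. For the ligands tested no treatment difference was called, and their intervals do not exclude changes of several fold.

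Whether a treatment acted differently between populations was tested as an interaction over the 36 endothelial libraries, and 0 of 30 ligands passed in any of 6 such tests. For angII against ctrl, the difference between heart LECs and BECs was called in 0% of genes (3 ligands at an unadjusted p under 0.05, limma), that between heart and diaphragm LECs in 0.00611% (2 ligands) and that between diaphragm LECs and BECs in 0% (5 ligands). For angII+VEGFC against angII, all 3 tests called 0% of genes, with 1, 6 and 3 ligands unadjusted. Cxcl12 and Cxcl1 had the smallest p-values of the first test, at 1.15 (SE 0.44, adjusted p = 0.606) and 1.29 (SE 0.54, adjusted p = 0.637) higher in heart LECs than in BECs. Ccl6 had the smallest of the fifth, with a response to added VEGFCc156s that was 3.69 higher in heart than in diaphragm LECs (SE 1.17, unadjusted p = 0.00339, adjusted p = 0.881). With the mean log2 level of the macrophage markers as a covariate, this Ccl6 difference was 1.68 (limma adjusted p = 0.951). Treatment differences of the LEC populations were therefore not shown to differ from those of BECs.

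In cardiomyocyte libraries, angII against ctrl called 0 of 28 ligands and 0.0892% of 15691 genes (4 ligands and 9.85% of genes unadjusted, limma), angII+VEGFC against angII 0 of 28 and 0% (0 ligands and 2.41% unadjusted) and angII+VEGFC against ctrl 0 of 28 and 0.663% (6 ligands and 12.9% unadjusted). Ccl8, a monocyte attractant named after its values were seen, came closest: it was 7.18, 8.34, 11.6 and 28 TPM in ctrl, 27.3, 52, 58.7, 62.8 and 79.7 TPM in angII and 22.9, 64.6 and 70.8 TPM in angII+VEGFC. A single ctrl library, mouse 9, overlapped the lowest treated ones. The differences against ctrl were 1.98 for angII (SE 0.39, interval 1.14 to 2.82, limma adjusted p = 0.0812) and 2.02 for angII+VEGFC (SE 0.45, adjusted p = 0.0563), which share the ctrl libraries, and angII+VEGFC differed from angII by 0.04 (interval -0.93 to 1.01). Both missed the threshold here and passed it under 3 of the alternative models each, including the fit with a surrogate variable. That variable was taken from the residuals of the same fit, so it left both differences unchanged and could only lower the residual spread. Without the angII+VEGFC library of mouse 8, 6 ligands were called for angII+VEGFC against ctrl.

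Ccl11 had the opposite order, at 11.6, 17.3, 22.3 and 26.4 TPM in ctrl, 5.52, 6.17, 6.36, 12.3 and 15.5 TPM in angII and 2.81, 8.8 and 11.2 TPM in angII+VEGFC. The angII+VEGFC libraries lay below ctrl without overlap (-1.29, SE 0.42, limma adjusted p = 0.195) and the angII libraries overlapped it (-1.09, SE 0.37, adjusted p = 0.303). Cxcl16 was 25.5, 26, 28.9 and 31.1 TPM in ctrl, 33.8, 42.5, 43, 47.2 and 61.8 TPM in angII and 23.6, 47 and 62.6 TPM in angII+VEGFC. All angII libraries exceeded ctrl (0.71, SE 0.24, adjusted p = 0.315). For angII+VEGFC against ctrl, Ccl3 (19.3, 20.8, 24.6 and 33.2 against 32.5, 39.1 and 52 TPM) differed by 0.79 (adjusted p = 0.216), Ccl9 (4.62, 10.1, 12.7 and 17.7 against 13.1, 25.3 and 35.3 TPM) by 1.19 (adjusted p = 0.225), Ccl4 by 0.72 (adjusted p = 0.35) and Ccl12 by 1.1 (adjusted p = 0.355). In each of these pairs the low angII+VEGFC library overlapped the ctrl range.

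The macrophage markers moved with these differences. Their sum was 808 to 1038 TPM in ctrl, 1349 to 2355 TPM in angII and 1277 to 2806 TPM in angII+VEGFC cardiomyocyte libraries, with no overlap between ctrl and the treated groups. The angII+VEGFC library of mouse 6 held the highest sum together with the highest Ccl12 (101 TPM) and Ccl4 (171 TPM), and that of mouse 8 the lowest treated sum together with the lowest treated Ccl8 (22.9 TPM). The order was not the same throughout: the highest Ccl8 (79.7 TPM) lay in the angII library of mouse 15, with a sum of 1350 TPM near the low end of the treated range. With the mean log2 marker level as a covariate, Ccl8 kept its direction but the difference against ctrl was 0.7 for angII (limma adjusted p = 0.668) and 0.84 for angII+VEGFC (adjusted p = 0.461). Ccl11 was at -0.93 and -1.14 in the same fits, and for angII+VEGFC Ccl3 was at 0.26 and Ccl9 at 0.29. The direction changed for the angII+VEGFC differences of Ccl4 (-0.36) and Ccl12 (-0.58) and the angII difference of Cxcl16 (-0.21). Summed fibroblast markers were likewise 2116 to 3068 TPM in ctrl and 3052 to 4672 TPM in the treated groups.

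**Figure D5:**
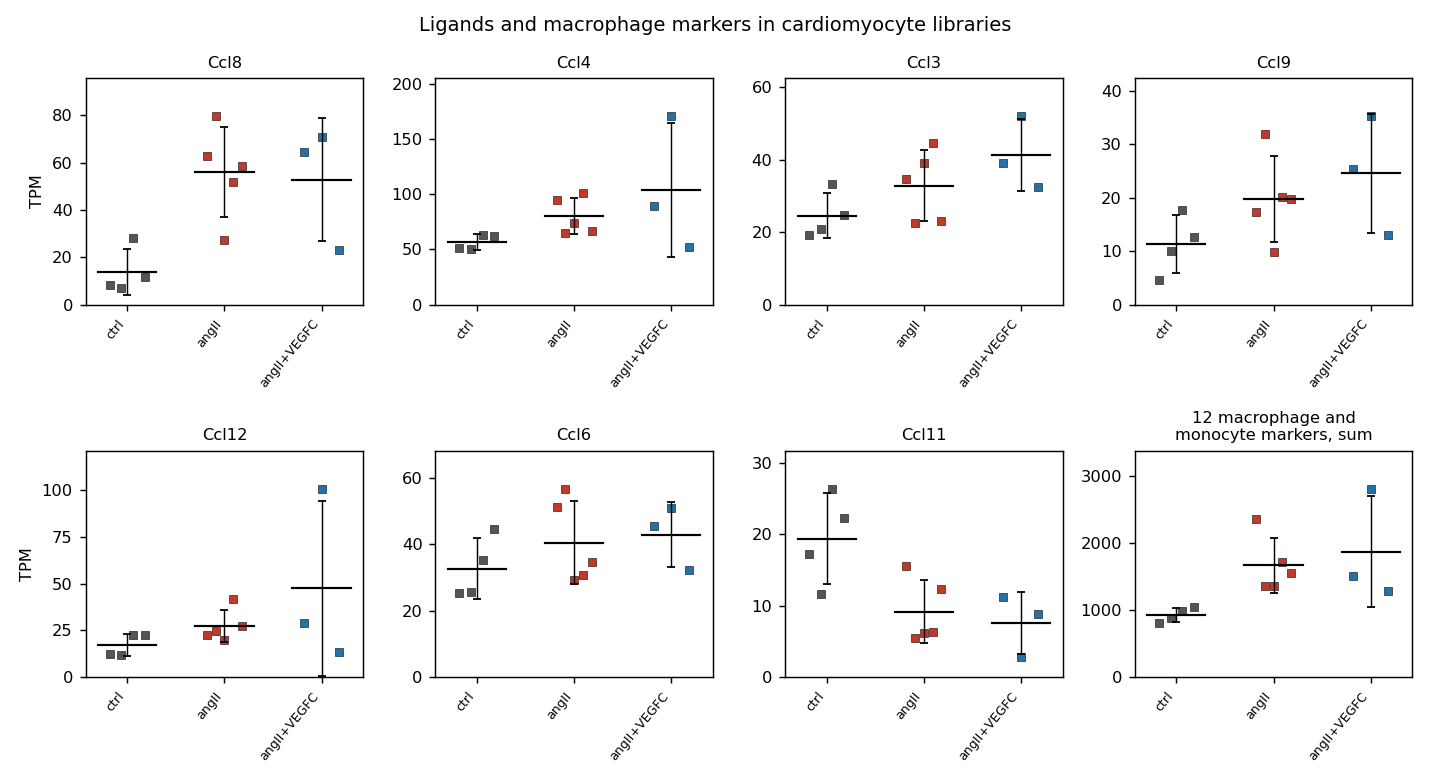
Level by library of ligands in the cardiomyocyte preparation and of the summed macrophage and monocyte markers (TPM, ctrl grey, angII red, angII+VEGFC blue), with group means and SD as bars. Ccl8 is higher in all treated libraries than in 3 of the 4 ctrl libraries, and the marker sum separates ctrl (808 to 1038 TPM) from the treated groups.

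Of the 22 chemokine receptor genes on the list, 11 to 15 were tested in each treatment comparison within a population, and none of these passed (limma, 0 to 4 at an unadjusted p under 0.05). Between populations, 4 of 18 receptors passed in each endothelial comparison, against 17.6% of all genes for heart LECs and BECs, 4.56% for heart and diaphragm LECs and 16.6% for diaphragm LECs and BECs. Ackr2, a decoy receptor that clears inflammatory CC ligands, was 133 ± 29.7 TPM in heart LECs, 254 ± 44.7 TPM in diaphragm LECs and 9.52 ± 2.76 TPM in BECs (SD, n = 12 each, heart LEC minus BEC 3.66, SE 0.13, limma adjusted p = 1.25e-21). Ackr4, which scavenges CCL21 and CCL19, was 39.6 ± 20.2 TPM in heart LECs, 18.7 ± 7.7 TPM in diaphragm LECs and 8.7 ± 4.1 TPM in BECs (2.01, SE 0.28, adjusted p = 9.11e-07). Ackr3, the CXCL12 scavenger, was 302 ± 65.1, 496 ± 158 and 258 ± 51.1 TPM in the same order, higher in diaphragm LECs than in BECs (0.92, adjusted p = 2.16e-05). Cxcr4, the signalling receptor of CXCL12, was lower in heart LECs than in BECs (-1.8, SE 0.3, adjusted p = 2.16e-05).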

How the data were processed

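Chemokine ligand expression was measured in 48 SMART-Seq ultra low input, Nextera XT libraries, which carry no strand information. Per the submitters' processing notes the authors aligned reads with STAR 2.5.3a to GRCm38 and quantified genes with Salmon 0.12.0, and they deposited one matrix of gene-level TPM (transcripts scaled for length and library total), which keeps no read depth.

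Ensembl identifiers were matched to GENCODE symbols, and groups were taken from the labels. Differences were tested on log2(TPM + 1), which understates changes of low genes, with limma 3.58.1 (R 4.3.3, trend), over genes that reached 1 TPM in 3 libraries or more of the fit, Benjamini-Hochberg adjusted over all genes tested, called at an adjusted p under 0.05. Labelled age and sequencing set were covariates for endothelium, age for cardiomyocytes. Populations were compared over 36 endothelial libraries, or 24 for cardiomyocytes and BECs, averaging over treatments. Labels give the animal, so libraries of different populations pair by mouse. The deviations of libraries of 1 mouse from their group means had a mean correlation of 0.036 over 69 pairs, against -0.0101 over 231 pairs of different mice. The fit with the mouse as replicate block was run as an alternative.

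Named ligands were those called in a treatment or interaction test, the 5 highest by mean TPM in each population, up to 6 with the smallest unadjusted p under 0.05 in each endothelial treatment comparison and 8 that the study names. Others are marked as chosen after their values were seen. The members, lists and tests were chosen with earlier results of these data known. Alternatives were another pseudocount, no filter, no covariates, a surrogate variable, quantile normalization, only the groups compared, the mean log2(TPM + 1) of the macrophage markers or the number of genes at 1 TPM as a covariate, and leaving out each library. On simulated data, the fit for angII against ctrl in heart LECs recovered 20% of genes shifted by 1 log2 unit and 70% of those shifted by 2. The fit for heart LECs against BECs recovered 74% and 100%. Only genes above the low range were shifted. Replicates are separate mice. Promoters were read from RefSeq with Python 3.11.15 and pandas 2.3.3.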

Additional observations from a re-analysis of the deposited data

Results flagged for a closer look

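A single library stood far above the others of its group in 9 of 68 ligand and group combinations tested with Dixon's criterion. The criterion flags about 1 in 20 groups of normally distributed values, but these were raw TPM values. The combinations also shared libraries and came from ligands the text discusses, so no excess over chance is read from the count. In heart LECs, Cxcl9 was 12.3 TPM in ctrl mouse 1 against 0 to 2.02 TPM in the other ctrl libraries, and 38.0 TPM in angII mouse 14 against 3.64 to 8.74 TPM. Cxcl10 was 48.3 TPM in ctrl mouse 9 against 5.04 to 8.57 TPM, and Ccl5 was 4.48 TPM in angII mouse 3 against 0 to 0.831 TPM. In diaphragm LECs, the library of ctrl mouse 9 was also high in Cxcl10, at 57.8 TPM against 2.11 to 5.21 TPM, and in Cxcl12, at 51.8 TPM against 14.4 to 17 TPM. That library held 140 TPM of summed neutrophil markers and 899 TPM of summed fibroblast markers, whose part in these levels was not tested. Ccl25 was 30.1 TPM in angII mouse 4 of the diaphragm against 4.49 to 11.1 TPM. In heart BECs, Cxcl1 was 972 TPM in ctrl mouse 1 against 280 to 355 TPM and 712 TPM in angII mouse 3 against 254 to 377 TPM, both libraries rich in fibroblast markers (3610 and 2210 TPM summed, against 416 to 886 TPM in 9 of the other 10).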

How the results depend on the processing

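The counts of ligands called in the 9 endothelial treatment comparisons and 6 interactions were 0 under every alternative run. In cardiomyocyte libraries, where 0 ligands were called, angII against ctrl gave 2 (Ccl8 and Cxcl16) with 1 surrogate variable, with the number of genes at 1 TPM as a covariate and with only the 2 groups compared, and 0 to 1 when single libraries were left out (1 without angII mouse 12). The comparison of angII+VEGFC with ctrl gave 1, Ccl8, with 1 surrogate variable and with quantile normalization. With macrophage markers as a covariate it also gave 1, but this was not Ccl8 (limma adjusted p = 0.461). It gave 5 with the number of genes at 1 TPM as a covariate, and 0 to 6 when single libraries were left out (6 without angII+VEGFC mouse 8). That cardiomyocyte library held 19306 genes at 1 TPM or more, against 13020 to 15816 in the other cardiomyocyte libraries. The count of 0 thus depended on a single library. The surrogate variable came from the residuals of the fit, so it could lower p-values without moving a difference. The causes were not tested.

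With macrophage markers as a covariate, cardiomyocytes against BECs called 4 ligands in place of 26, and the difference changed direction for Ccl4 (-0.74), Ccl12 (-0.76), Ccl9 (-0.47), Ccl8 (-2.35), Ccl17 (-1.26), Ccl25 (0.89), Cxcl2 (-2.13), Cxcl14 (-2.48), Ccl2 (-4.12), Ccl7 (-7.09), Ccl5 (-3.09) and Cxcl3 (-2.29), in a fit where marker level and population nearly coincide. The same covariate reversed Ccl4 (-0.36) and Ccl12 (-0.58) for angII+VEGFC against ctrl and Cxcl16 (-0.21) for angII against ctrl in cardiomyocytes, and Ccl6 (0.69) for angII+VEGFC against angII in diaphragm LECs. Quantile normalization reversed Cxcl16 (0.13) and Cxcl1 (0.17) between cardiomyocytes and BECs.

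With the mouse as replicate block, heart LECs against BECs gave 13 ligands in place of 12 (Ccl8 added, -1.31, adjusted p = 0.0397), cardiomyocytes against BECs 27 in place of 26 (Cxcl1 added), and no other call of a named ligand changed. No paired analysis was possible within a population because each mouse had 1 treatment. Leaving out single libraries gave 11 to 12 ligands for heart LECs against BECs, 4 to 6 for heart against diaphragm LECs, 10 to 15 for diaphragm LECs against BECs and 24 to 27 for cardiomyocytes against BECs. Without the 3 BEC libraries high in fibroblast markers, an alternative chosen after seeing the data, the counts against BECs were 10, 11 and 27, and without the diaphragm library high in neutrophil markers heart against diaphragm LECs gave 5. TPM values keep no depth, and 3 libraries in angII+VEGFC limit every comparison with that group.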
